A study of Bos indicus with 6 samples.

Results

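The genes described here are 10 genes of antigen processing and of the partners of the major histocompatibility complex (MHC): PSMB8, PSMB9, TAP1, TAP2, TAPBP, B2M, NLRC5, CIITA, CD74 and CTSS. They were taken by their symbol from the 24616 genes of the isthmus values, and each of the 10 symbols stood on 1 row. The isthmus is the part of the oviduct next to the uterus, and its full wall was taken from the side that carried the corpus luteum (CL). The samples came from 6 multiparous Nelore (Bos indicus) cows killed on day 4 after an injection of a GnRH agonist, with 1 RNA-seq library per cow. LF/LCL cows 617, 79 and 527 (large follicle, large CL) had the progesterone device removed 42 h before GnRH and SF/SCL cows 856, 489215 and 97 (small follicle, small CL) 30 h before. All cows received the progesterone device with estradiol benzoate, and prostaglandin F2α at device removal and again after it, while the LF/LCL cows had an additional prostaglandin injection when the device was inserted. The cows are extremes by design, since the study sequenced the top-ranked LF/LCL and the bottom-ranked SF/SCL animals, and no cow without hormonal treatment was included.

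MHC class I molecules carry peptides from inside a cell to its surface, where T cells read them. Such peptides are cut by the proteasome, in which inducible catalytic subunits can take the place of constitutive ones, are pumped into the endoplasmic reticulum by the TAP transporter and are loaded onto class I heavy chains held by tapasin and bound to beta-2-microglobulin. MHC class II molecules, best known from dendritic cells, macrophages and B cells but also made by some epithelia, are escorted by the invariant chain and receive peptides in endosomes after cathepsins have cut that chain away. NLRC5 and CIITA are the coactivators that switch on the class I and the class II genes, and interferon gamma is the classical inducer of both sets. The oviduct must tolerate sperm and an early embryo while its epithelium keeps an immune defence.

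Expression was measured as normalized counts, which are reads per gene divided by the size factor of the library and not scaled by gene length, so that 1 gene can be compared between cows but not with another gene. Whole reads recovered from the values summed to between 23899117 and 34193164 per library, with a median of 27155932. The members were counted from 80 reads (CIITA in cow 489215) to 77913 reads (B2M in cow 856), so that none was near the limit of 3 reads that a count of 0 allows. Cow 489215 stood apart from the other cows: its median absolute log2 difference from the median of the others was 0.70 over the 15387 genes tested, against 0.20 to 0.31 for the other 5 cows. It held the highest value of 36.7% and the lowest value of 35.7% of these genes, and results are therefore given with and without it. Every library held reads of epithelial keratin, ciliary and smooth muscle genes, which belong to the layers of a full oviduct wall.

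B2M, CD74 and CTSS were higher in each SF/SCL cow than in each LF/LCL cow. NLRC5 and CIITA were higher in SF/SCL cows 856 and 97 than in any LF/LCL cow, whereas cow 489215 had the lowest value of both. PSMB8, PSMB9 and TAP1 had higher means in SF/SCL with overlapping groups, and for TAP2 and TAPBP the groups overlapped with lower means in SF/SCL. With all 6 cows 0 of the 10 genes passed the threshold of 0.05 on the p-value that limma adjusted over all genes, and the share over all genes tested was also 0%, with a smallest adjusted p of 0.351. When cow 489215 was left out, 3 of the 10 genes passed as higher in SF/SCL, beside 10.3% of all genes then tested.

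**Figure D1:**
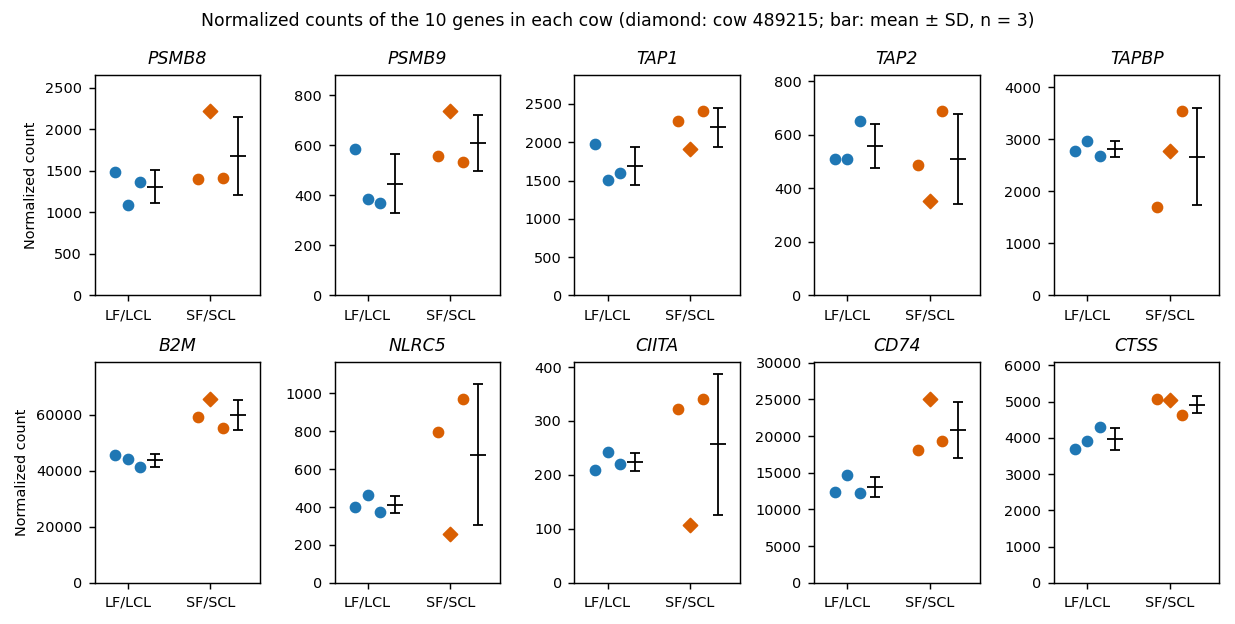
Normalized counts (linear axis from 0) of each of the 10 genes in the 3 LF/LCL cows (blue) and the 3 SF/SCL cows (orange), with the mean and SD of each group beside the points and cow 489215 as a diamond. The groups are apart for B2M, CD74 and CTSS, and the diamond lies highest for PSMB8, PSMB9, B2M and CD74 and lowest for TAP2, NLRC5 and CIITA.

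Of the regulators, the class I coactivator NLRC5 (ENSBTAG00000005413) had normalized counts of 399 in cow 617, 465 in cow 79 and 375 in cow 527 of the LF/LCL group. The SF/SCL cows had 798 in cow 856, 258 in cow 489215 and 972 in cow 97. The SF/SCL group thus held both the lowest and the highest values of NLRC5. The log2 fold change of SF/SCL over LF/LCL, here and below on the log2(value + 1) scale, was 0.51 ± 0.51 (SE, 95% interval -0.71 to 1.72, limma adjusted p = 0.859). Without cow 489215 it was 1.10 ± 0.16 (SE, limma adjusted p = 0.00769), a 2.14-fold ratio of the means of 2 and 3 cows, whereas it was 0.29 without cow 856 and 0.14 without cow 97. In cow 489215 the value was 0.292 of the mean of cows 856 and 97.

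CIITA (ENSBTAG00000020649), the coactivator of class II genes, had 208, 242 and 220.5 normalized counts in LF/LCL cows 617, 79 and 527. In the SF/SCL group it had 322 in cow 856, 107 in cow 489215 and 341 in cow 97, the same order of cows around the LF/LCL range as for NLRC5. Its log2 fold change was 0.03 ± 0.48 (SE, 95% interval -1.14 to 1.19, limma adjusted p = 0.992) and -0.0014 when the values were rescaled by TMM. Without cow 489215 the value was 0.57 ± 0.16 (SE, limma adjusted p = 0.0579), which missed the threshold that NLRC5 passed.

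Some epithelial markers varied between the cows in a similar way. The 6 tested markers of ciliated cells were all higher in cows 856 and 97 than in each LF/LCL cow. The share of all genes with that order was not computed. Of the 6 markers 4 were lowest in cow 489215, beside 35.7% of all genes tested, with DNAI1 there above the LF/LCL cows and RSPH1 within the LF/LCL range. The summed normalized counts of the 6 markers were 11869 to 15537 in LF/LCL, 28826 and 30497 in cows 856 and 97 and 8796 in cow 489215. The median log2 fold change of the 6 was 0.49 with all cows and 1.02 without cow 489215. Without that cow limma called 6 of 6 as higher in SF/SCL, beside 10.3% of all genes. PAX8, an epithelial transcription factor, had 503 to 663 normalized counts in LF/LCL, 1441 and 1437 in cows 856 and 97 and 469 in cow 489215. OVGP1, the secreted oviductal glycoprotein, which was outside the filters of the test, had 287, 1782 and 1949.9 in LF/LCL cows 617, 79 and 527, 271794 and 325158 in cows 856 and 97 and 729.6 in cow 489215. Of the 8 tested markers of macrophages and dendritic cells, 5 were lowest and 1 highest in cow 489215. These 8 summed to 1202 in that cow, and to 2662 and 2303 in cows 856 and 97, within the LF/LCL range of 1277 to 2856. The part of ciliated, secretory and immune cells in the NLRC5 and CIITA values was not tested.

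PSMB8 (ENSBTAG00000003039) and PSMB9 (ENSBTAG00000008954) encode inducible catalytic subunits of the immunoproteasome. PSMB8 had 1482, 1088 and 1361 normalized counts in LF/LCL cows 617, 79 and 527 and 1403, 2217 and 1409 in SF/SCL cows 856, 489215 and 97. Only cow 489215 lay above the LF/LCL range, and cows 856 and 97 lay within it. The log2 fold change of PSMB8 was 0.33 ± 0.25 (SE, 95% interval -0.27 to 0.94, limma adjusted p = 0.806) and ran from 0.11 (without cow 489215) to 0.44 as single cows were omitted. PSMB9 had 583, 386 and 369.8 in LF/LCL cows 617, 79 and 527 and 555, 735 and 531 in SF/SCL cows 856, 489215 and 97. The groups of PSMB9 overlapped through cow 617, and the log2 fold change was 0.46 ± 0.27 (SE, 95% interval -0.19 to 1.11, limma adjusted p = 0.733), with a range of 0.31 (without cow 489215) to 0.67 (without cow 617) as single cows were omitted.

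TAP1 and TAP2 form the transporter that moves peptides into the endoplasmic reticulum. TAP1 (ENSBTAG00000008953) had 1977, 1501 and 1592 normalized counts in LF/LCL cows 617, 79 and 527 and 2274, 1909 and 2403 in SF/SCL cows 856, 489215 and 97. Cow 617 lay above cow 489215, and the other cows were in the order of their groups. The log2 fold change of TAP1 was 0.38 ± 0.19 (SE, 95% interval -0.08 to 0.84, limma adjusted p = 0.652), and 0.48 ± 0.14 (SE, limma adjusted p = 0.0559) without cow 489215. TAP2 (ENSBTAG00000003038) had 509, 512 and 652 in the LF/LCL cows and 489, 354 and 688 in the SF/SCL cows in the same order of cows. Its log2 fold change was -0.17 ± 0.30 (SE, 95% interval -0.88 to 0.55, limma adjusted p = 0.913), and the sign turned without cow 489215, to 0.07.

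TAPBP (ENSBTAG00000016828) encodes tapasin, which holds class I molecules at the TAP transporter. It had 2783, 2975 and 2675 normalized counts in LF/LCL cows 617, 79 and 527 and 1693, 2779.9 and 3539.6 in SF/SCL cows 856, 489215 and 97. The lowest and the highest value were thus both in SF/SCL cows, and here cow 489215 was the one near the LF/LCL cows. The log2 fold change was -0.14 ± 0.29 (SE, 95% interval -0.82 to 0.55, limma adjusted p = 0.923). It was 0.16 without cow 856.

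B2M (ENSBTAG00000012330) encodes beta-2-microglobulin, the light chain of all class I molecules. It had 45743, 44249 and 41273 normalized counts in LF/LCL cows 617, 79 and 527 and 59181, 65740.0 and 55137 in SF/SCL cows 856, 489215 and 97. The lowest SF/SCL value was above the highest LF/LCL value. The means were 43755 ± 2276 and 60019 ± 5351 (SD, n = 3 each), a ratio of 1.37, with a log2 fold change of 0.45 ± 0.20 (SE, 95% interval -0.04 to 0.94, limma adjusted p = 0.618). Without cow 489215 the log2 fold change was 0.39 ± 0.09 (SE, limma adjusted p = 0.0354).

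CD74 (ENSBTAG00000015228), the invariant chain of class II, had the largest limma log2 fold change of the 10 genes with all 6 cows, although in edgeR that of NLRC5 was larger (0.69 against 0.64), as it was in DESeq2 (0.72 against 0.67). Its normalized counts were 12338, 14667 and 12264 in LF/LCL cows 617, 79 and 527 and 18035, 25094 and 19275 in SF/SCL cows 856, 489215 and 97. The groups did not overlap, with means of 13090 ± 1366 and 20801 ± 3768 (SD, n = 3 each) and a ratio of 1.59. The log2 fold change was 0.66 ± 0.21 (SE, 95% interval 0.15 to 1.16), with a limma p of 0.0182 before and 0.454 after adjustment. It was 0.52 ± 0.11 (SE, limma adjusted p = 0.0247) without cow 489215.

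CTSS (ENSBTAG00000017135) encodes cathepsin S, the endosomal protease that trims the invariant chain. Its normalized counts were 3684, 3913 and 4288 in LF/LCL cows 617, 79 and 527 and 5082, 5038 and 4639.6 in SF/SCL cows 856, 489215 and 97, without overlap. The log2 fold change of 0.31 ± 0.16 (SE, 95% interval -0.06 to 0.69, limma adjusted p = 0.650) was 0.30 without cow 489215 (adjusted p = 0.0915 from limma).

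Across the 10 genes, which share the same 6 cows and are not replicates of each other, 8 had a log2 fold change above 0 and the median was 0.36, against -0.02 over all 15387 genes tested. An unadjusted limma p under 0.05 was reached by 1 of the 10 with a higher level in SF/SCL (CD74), beside 4.19% of all genes tested, and by 0 with a lower level, beside 4.48%. Normalized counts without overlap and higher in SF/SCL were found for 3 of the 10 genes, beside 9.51% of all genes, and lower in SF/SCL for 0, beside 8.6%. With all 6 cows, edgeR called 0 of all the genes tested, with 1338 at an unadjusted p under 0.05, where limma had 1333. DESeq2 called 0 of the 10 genes, beside 1.35% of all genes in each direction. Without cow 489215 limma called NLRC5, CD74 and B2M as higher in SF/SCL, 3 of the 10, beside 10.3% of the 15495 genes then tested, and it called 0 of the 10 as lower, beside 7.92%. The edgeR quasi-likelihood test without that cow also called these 3 genes and none of the other 7. Of the 10 genes, 4 were highest and 3 lowest in cow 489215, beside 36.7% and 35.7% of all genes tested. In cow 97, for which no such share was computed, 5 were highest.

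**Figure D2:**
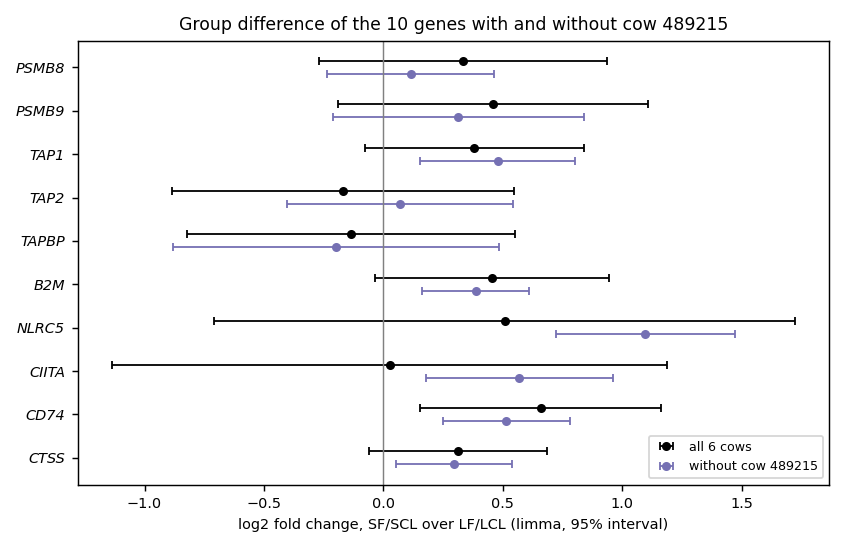
Log2 fold change of SF/SCL over LF/LCL from limma for each of the 10 genes, with its 95% interval, from all 6 cows (black) and without cow 489215 (purple). With all cows the CD74 interval alone lies above 0, and without cow 489215 the intervals of TAP1, B2M, NLRC5, CIITA, CD74 and CTSS do.

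A ratio between genes of the same library hardly depends on its size factor. PSMB8, PSMB9 and PSMB10 replace the constitutive catalytic subunits PSMB5, PSMB6 and PSMB7, so each inducible subunit was divided by its counterpart, with 1 added to both counts. Since the counts are not scaled by length, such a ratio is compared between cows and is not a ratio of molecules. The PSMB8/PSMB5 ratio was 0.416, 0.327 and 0.470 in LF/LCL cows 617, 79 and 527 and 0.544, 0.371 and 0.529 in SF/SCL cows 856, 489215 and 97. The PSMB9/PSMB6 ratio was 0.256, 0.183 and 0.206 in the LF/LCL cows and 0.338, 0.155 and 0.310 in the SF/SCL cows. The PSMB10/PSMB7 ratio was 0.421, 0.341 and 0.372 in the LF/LCL cows and 0.460, 0.416 and 0.550 in the SF/SCL cows. All 3 ratios were higher in cows 856 and 97 than in each LF/LCL cow, and cow 489215 lay within or below the LF/LCL range.

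On the log2 scale the difference between SF/SCL and LF/LCL was 0.25 for PSMB8/PSMB5, 0.25 for PSMB9/PSMB6 and 0.33 for PSMB10/PSMB7 (two-sided exact permutation test, 10 divisions of 6 cows, p = 0.3, 0.6 and 0.2). Without cow 489215 the differences were 0.42, 0.61 and 0.42. They were smaller when other cows were omitted: PSMB8/PSMB5 came to 0.10 without cow 79, 0.15 without cow 856 and 0.17 without cow 97, PSMB9/PSMB6 to 0.04 without cow 856, 0.10 without cow 97 and 0.14 without cow 79, and PSMB10/PSMB7 to 0.22 without cow 97. The constitutive subunits were themselves highest in cow 489215 and lowest in cows 856 and 97: PSMB5 had 5983 normalized counts in cow 489215, 2581 and 2662 in cows 856 and 97, and 2898 to 3568 in the LF/LCL cows. PSMB10 was also highest there, at 2191, beside a range of 934 to 1276 elsewhere.

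The TAP1/TAP2 ratio was 3.88, 2.93 and 2.44 in LF/LCL cows 617, 79 and 527 and 4.64, 5.38 and 3.49 in SF/SCL cows 856, 489215 and 97, with a log2 difference of 0.55 and overlap through cow 617 (exact permutation test, p = 0.2). CD74 and CTSS were also divided by PTPRC, the pan-leukocyte gene CD45. CD74/PTPRC was 16.5, 14.97 and 11.5 in the LF/LCL cows and 20.3, 47.7 and 22.7 in the SF/SCL cows, and CTSS/PTPRC was 4.93, 3.99 and 4.03 against 5.72, 9.59 and 5.48. For both the groups did not overlap, with log2 differences of 0.98 and 0.64 (exact permutation test, two-sided, p = 0.1 each, the smallest possible with 3 against 3). After Benjamini-Hochberg adjustment over the 6 ratios the permutation p ranged from 0.3 to 0.6. Without cow 489215, in which PTPRC was lowest at 525, the log2 differences of CD74/PTPRC and CTSS/PTPRC were 0.60 and 0.38. The size of these differences depends on the leukocyte gene chosen, since PTPRC itself had a log2 fold change of -0.33. Of the other general leukocyte markers, CORO1A (-0.32) and LAPTM5 (-0.12) were also below 0, whereas CD53 (0.18) and LCP1 (0.21) were above 0.

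**Figure D3:**
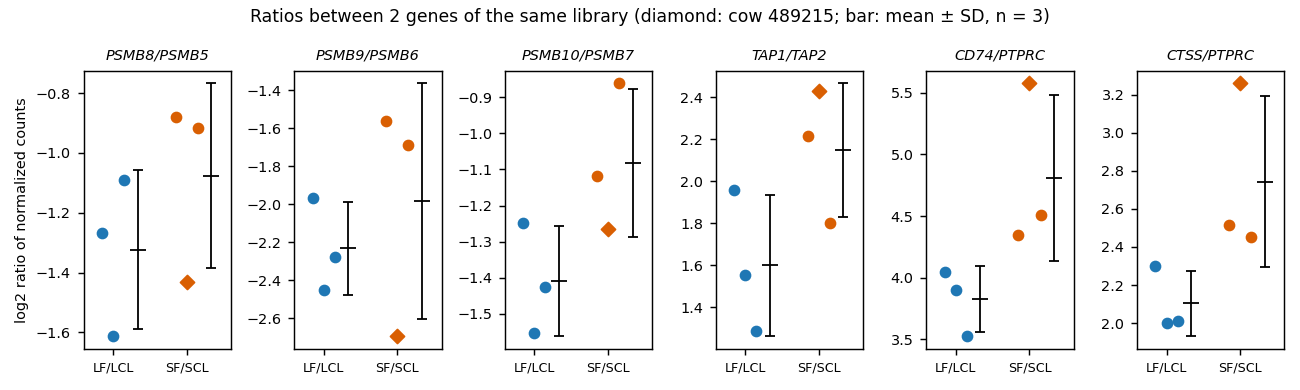
Log2 ratio of the normalized counts of 2 genes within each library for the 3 LF/LCL cows (blue) and the 3 SF/SCL cows (orange), with the mean and SD of each group and cow 489215 as a diamond; the axes differ and do not start at 0. CD74/PTPRC and CTSS/PTPRC are higher in each SF/SCL cow, and the diamond is within or below the LF/LCL points for the proteasome ratios.

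Among the factors that act on the MHC promoters with NLRC5 and CIITA, RFX5, a subunit of the RFX complex, had 458, 498 and 510.3 normalized counts in LF/LCL cows 617, 79 and 527 and 534, 136 and 429 in SF/SCL cows 856, 489215 and 97. As for NLRC5 and CIITA, the value of cow 489215 was the lowest of the 6. The other subunits RFXAP and RFXANK were not lowest in that cow, with 402 and 1317 there and 355 to 409 and 827 to 1130 in the other cows. The log2 fold changes of RFX5, RFXAP and RFXANK were -0.63, -0.01 and -0.14, with overlapping groups.

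IRF1, the interferon-induced activator of class I genes, had 1785, 1560.0 and 1351 normalized counts in LF/LCL cows 617, 79 and 527 and 1888, 2274 and 2092 in SF/SCL cows 856, 489215 and 97. The groups did not overlap, and the log2 fold change was 0.42 (limma adjusted p = 0.606), or 0.35 without cow 489215 (limma adjusted p = 0.125). IFNG itself had 0 reads in 4 cows and 1 read in cows 489215 and 97, and a count of 0 allows up to 3 reads.

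**Figure D4:**
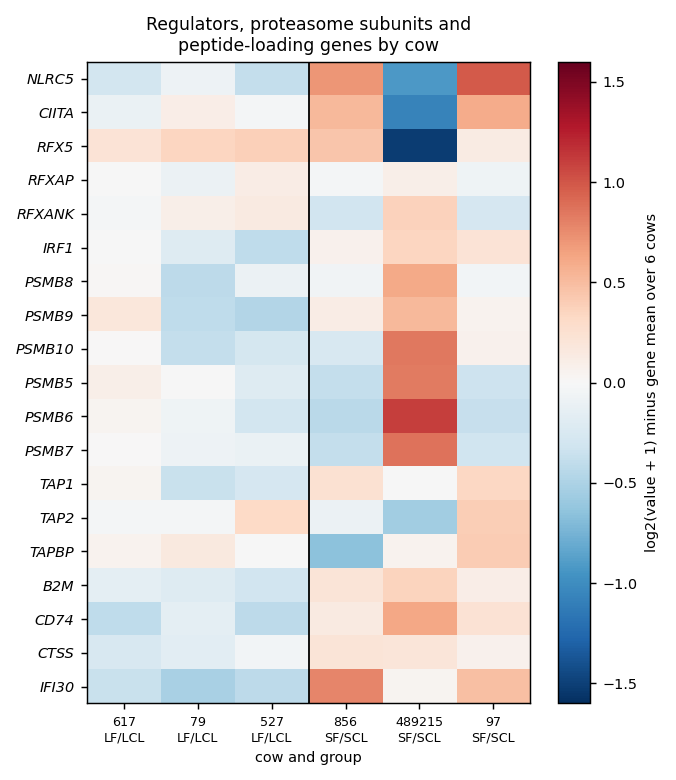
Log2(value + 1) of regulators, proteasome subunits and peptide-loading genes in each cow, minus the mean of the gene over the 6 cows (red higher, blue lower). Cow 489215 is blue for NLRC5, CIITA and RFX5 and red for the proteasome subunits, while cows 856 and 97 are red for NLRC5 and CIITA.

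The wider pathway was described with lists of further genes. Of 19 further symbols of the class I route, 18 were tested: 11 had a log2 fold change above 0, the median was 0.12 (0.02 without cow 489215), and 2 were higher in SF/SCL without overlap (IRF1 and TAPBPL, a tapasin relative), beside 9.51% of all genes. Of 22 symbols of the class II route, 19 were tested, with a median of -0.01. IFI30, a thiol reductase of endosomes that prepares antigens for class II, had 542, 482 and 518 normalized counts in LF/LCL and 1190.3, 711 and 963 in SF/SCL, with a log2 fold change of 0.86. It was the only gene of the 3 lists that DESeq2 called with all cows (adjusted p = 0.0477). MARCH8, a ubiquitin ligase that removes class II molecules from the surface, was lower in SF/SCL without overlap (log2 fold change -0.53). Of 15 symbols of the interferon gamma route, 13 were tested, with a median of 0.04 that ran from -0.12 to 0.15 as each cow was omitted. Of the 13, 3 were higher in SF/SCL without overlap, beside 9.51% of all genes: IRF1, the transcription factor STAT3 (log2 fold change 0.24) and the inhibitory phosphatase PTPN2 (0.22), the latter 2 named after their values were seen. SOCS3, an inhibitor of cytokine signalling, was the 1 gene lower without overlap (-0.81), beside 8.6%. In limma with all cows 0 genes of these lists passed the adjusted threshold, and an unadjusted p under 0.05 was reached by IFI30, MARCH8 and SOCS3. Without cow 489215, limma called IFI30, ERAP1 (which trims class I peptides) and MR1 as higher in SF/SCL and CALR, LGMN, MARCH8 and JAK1 as lower, where ERAP1, MR1, CALR, LGMN and JAK1 are named after their values were seen. The shares over all genes in that fit were 10.3% higher and 7.92% lower.

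The partners of B2M and CD74 are the MHC chains themselves, which the values hold on 19 rows, 14 of them tested. Many of these genes, though not all, are near-identical and differ between animals, so that reads may be divided among rows or lost, and their values are uncertain. Of the 3 rows named BOLA, ENSBTAG00000002069 had 5943, 4062 and 3552 normalized counts in LF/LCL cows 617, 79 and 527 and 10228, 9649.7 and 8975 in SF/SCL cows 856, 489215 and 97. This row had a log2 fold change of 1.123 (limma adjusted p = 0.367). With all 6 cows limma called 0 of the 14 rows. DESeq2 with all 6 cows called 1 of them, this row (adjusted p = 0.00751), as higher in SF/SCL, beside 1.35% of all genes. The other BOLA rows, named after their values were seen, had overlapping groups and log2 fold changes of -0.99 (ENSBTAG00000005182) and 0.71 (ENSBTAG00000022590), so rows of this symbol differed in sign. The class II chain BOLA-DRA had 5661 to 7442 in LF/LCL and 8531 to 10625 in SF/SCL (log2 fold change 0.52), and HLA-DMB, whose product exchanges class II peptides, had 782 to 791 and 999.9 to 1513 (log2 fold change 0.72). Without overlap, 3 of the 14 rows were higher in SF/SCL (ENSBTAG00000002069, BOLA-DRA and HLA-DMB), beside 9.51% of all genes, and 0 were lower, beside 8.6%. Of the 14, 9 had a log2 fold change above 0 and 5 below it. The range was -2.15 (BOLA-DQA2) to 1.91 (BOLA-DQA1), both class II chains with overlapping groups, named after their values were seen. The median of the 14 rows was 0.19 with all cows and 0.49 without cow 489215, when limma called 5 of them as higher in SF/SCL (ENSBTAG00000002069, ENSBTAG00000022590, BOLA-DRA, HLA-DMB and MR1) and 0 as lower, beside 10.3% and 7.92% of all genes. IFI30, HLA-DMB and a BOLA gene had been selected by the study on these libraries, so that their direction is not independent evidence.

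**Figure D5:**
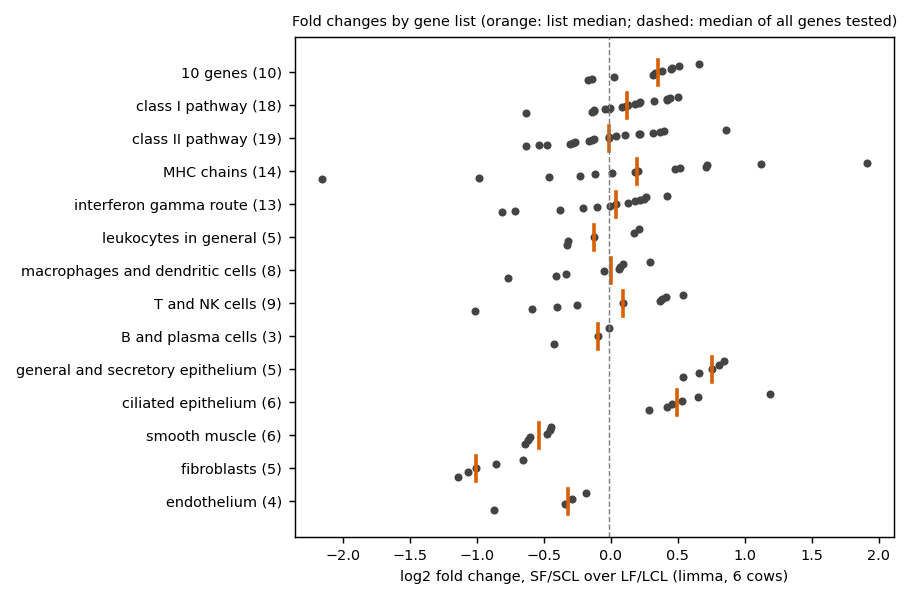
Log2 fold change (SF/SCL over LF/LCL, limma, 6 cows) of each tested gene of the 10 described and of each list, with the number tested in brackets, the list median in orange and the median of all genes tested as a dashed line. The medians are 0.36 for the 10 genes, 0.76 for general epithelium and -1.002 for fibroblasts, and the 4 immune lists have medians from -0.12 to 0.09.

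In RNA of a whole wall, a larger share of a cell type and more RNA of a gene per cell cannot be told apart, so marker genes were set beside these results. Of 29 symbols of leukocytes, macrophages and dendritic cells, T and NK cells and B and plasma cells, 27 were found and 25 tested. None of the 27 was at 0 in all cows, and the median log2 fold change was -0.05. Without overlap, 1 of the 25 was higher in SF/SCL (CD2), beside 9.51% of all genes. Lower in SF/SCL without overlap was 1 (CORO1A), beside 8.6%, and both are named after their values were seen. Their summed normalized counts were 14804 to 28466 in LF/LCL and 19160 to 19416 in SF/SCL, of which IGJ, the joining chain of plasma cells, made up 5401 to 17087. Without IGJ the sums were 9251, 11380 and 12342 in LF/LCL cows 617, 79 and 527 and 13986, 9330 and 10466 in SF/SCL cows 856, 489215 and 97. Cow 856 was thus above the LF/LCL cows, and its general leukocyte markers summed to 9827 beside 6475 to 7683 in LF/LCL. Much of this was LCP1, with 5173 in cow 856 and 2806 to 2982 in LF/LCL. CD53 and LAPTM5 were also highest in cow 856, but PTPRC lay within the LF/LCL range and CORO1A below it. Markers of T and NK cells summed to 2446 in cow 489215 beside 1435 to 1665 in LF/LCL. The largest there were CD8A (877) and CD3E (622), and of the 9 markers 4 were highest and 1 (CD4) lowest in that cow. The part of immune cells in the CD74 and CTSS values was not tested.

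Of the general epithelial markers EPCAM, KRT8 and KRT18 were higher in each SF/SCL cow than in each LF/LCL cow, as were B2M, CD74 and CTSS. Over all genes tested 9.51% were so. KRT19 overlapped through cow 617 (7332, against 4858 in cow 856), and PAX8 was lowest in cow 489215. The median log2 fold change of these 5 markers was 0.76, or 0.69 without cow 489215. Without OVGP1, the 5 genes summed to 23431 to 35463 in LF/LCL and 39921 to 53481 in SF/SCL. CDH1 (E-cadherin), also on this list, matched no row by its symbol and has no value here. The study lists E-cadherin among the enriched genes of the LF/LCL isthmus, the other direction. The 5 fibroblast markers were all below 0 (median -1.002, sums of 287776 to 356045 in LF/LCL and 146894 to 204688 in SF/SCL). Of these, COL1A1, COL3A1 and LUM had been selected by the study on these libraries as LF/LCL genes, so that their direction is not independent evidence. Smooth muscle markers, 6 of 6 below 0 with a median of -0.54, summed to 689337 to 810502 in LF/LCL, 314026 and 378579 in cows 856 and 97 and 1193580 in cow 489215, the cow with the highest proteasome subunits. Without cow 489215 the smooth muscle median was -1.08, and limma called 5 of the 6 as lower in SF/SCL, beside 7.92% of all genes. The 4 tested endothelial markers were below 0 as well (median -0.32, or -0.55 without cow 489215).

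The 3 members without overlap were also divided by EPCAM, a choice made after the values had been seen and given without a test. CD74/EPCAM was 1.00, 1.48 and 1.44 in LF/LCL cows 617, 79 and 527 and 1.14, 1.24 and 1.02 in SF/SCL cows 856, 489215 and 97. B2M/EPCAM was 3.72, 4.46 and 4.84 against 3.73, 3.24 and 2.92, and CTSS/EPCAM was 0.300, 0.394 and 0.503 against 0.320, 0.248 and 0.246. For all 3 ratios the SF/SCL mean was below the LF/LCL mean. EPCAM itself had a log2 fold change of 0.85, larger than that of each of the 3 genes. Lower ratios in SF/SCL were thus set by the choice of EPCAM, and no conclusion is drawn from them. The part of the epithelial, fibroblast and muscle differences in the results for the 10 genes was not tested.

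The genes whose pattern over the 6 cows was nearest to the mean pattern of the 7 class I genes (Euclidean distance of centred log2 values) were an unnamed gene (ENSBTAG00000039263, distance 0.129), RARA (0.133), TPP2 (0.134), CEP57L1 (0.138) and ZMYND8 (0.140). For the 3 class II genes they were IFIT5 (0.136), TRIM5 (0.136), CXXC1 (0.146), EPHX3 (0.147) and LIG1 (0.151). The members themselves lay from 0.269 for TAP1 to 1.36 for NLRC5 from their mean in class I and from 0.403 for CTSS to 1.09 for CIITA in class II. The medians over all genes tested were 1.1 and 1.2, and of the members NLRC5 alone lay beyond its median. The named genes were taken as the nearest of all genes tested, so nothing follows from the members lying farther than they do. The RefSeq gene order of a Bos indicus (Tharparkar) assembly, which was not the build used for counting, held 9 of the 10 genes. TAP2 was absent from it, so that its place beside the others is not given here. Of the 9, TAP1 lies between PSMB8 and PSMB9 as their direct protein-coding neighbour, and none of the other 6 adjoins another of the 9.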

How the data were processed

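Polyadenylated RNA of 6 isthmus samples was sequenced as paired ends. Per the labels and the methods of the study, the authors filtered reads with seqyClean, aligned them with TopHat2 2.0.8 and Bowtie2 2.1.0 to the masked assembly UMD3.1, counted unique reads per gene with HTSeq 0.5.4p2 and divided them by DESeq 1.12.1 size factors. Whether counting used the strand is not given in the sources used here. The deposited signal values are these normalized counts, and all 147696 were whole multiples (within 0.001) of the value of 1 read in their library (100%), so reads could be recovered.

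Only genes whose mean exceeded 5 and also their SD were tested with limma 3.58.1 (trend and robust eBayes, R 4.3.3) on log2(value + 1), without covariates, since no number or batch links the cows. P-values were adjusted by Benjamini-Hochberg over the 15387 genes, threshold 0.05. A pseudocount understates changes of low genes. Count models (edgeR 4.0.16, DESeq2 1.42.0) on recovered reads were alternatives, and fits were tested on simulated data. Named were the 10 genes, fixed subunits and factors, and in each list up to 3 non-overlapping genes with the largest change. Members and lists were chosen with earlier results of these data known. Plots and other calculations used Python 3.11.15. Limits from reads cover counting error only. The intervals come from the SE of the limma fit, which includes the variation between cows within the groups. No sequences were used here, and 1 further gene of the pathway lists is not reported here.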

Additional observations from a re-analysis of the deposited data

How the results depend on the processing

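Cow 489215 decided most calls. Over all genes limma called 0 to 2827 genes with each cow in turn omitted, the 2827 without cow 489215, edgeR without that cow (an alternative chosen after seeing the data) called 2768, and DESeq2 with all cows called 416. Of the 10 genes, 0 to 3 passed the adjusted threshold when each cow was left out, and 3 with edgeR without cow 489215. An unadjusted p under 0.05 was reached by 0 to 6 of the 10 when each cow was left out (0 without cow 617 or 527, 6 without cow 489215), by 6 with edgeR without cow 489215, and by 2 with DESeq2 and with plain eBayes. Their median log2 fold change ran from 0.30 to 0.46 when each cow was left out. Directions turned for 3 genes. TAP2 ran from -0.41 to 0.068 over the cows left out and was 0.075 with edgeR without cow 489215, TAPBP ran from -0.37 to 0.16, and CIITA ran from -0.27 to 0.57 and was -0.0014 with values rescaled by TMM. The cause was not tested. The other 7 genes and the 6 ratios kept their direction under all alternatives tried for them. No paired analysis was possible because no cow number is shared between the groups.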
